A study of Mus musculus with 18 samples.

Results

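Embryonic mouse ventricles labelled as knockout for both Irx3 and Irx4 were compared with wild-type ventricles, using the double-knockout libraries that share the transcript-length profile of the wild type. These were the double-knockout libraries numbered 5, 7 and 10 (DKO) and the wild-type libraries 1, 2 and 3 (WT), so 6 of the 18 libraries of the series. The genotype labels give both genes as knocked out in DKO and neither as altered in WT, all at E14.5, when the ventricular wall is being built. A second set of 6 libraries, double knockouts 2, 3 and 4 and ventricles heterozygous for both genes (dHet 2, 3 and 4), is set beside it below; their levels do not enter the fold changes of DKO over WT, but they share the fit's estimate of the spread. Each library is polyA-selected RNA of dissected ventricles, kept frozen before extraction and used where the RNA integrity number was above 8.5. The labels name no Cre driver, do not say which part of either gene was removed, and do not say whether a library is 1 embryo or a pool. The p-values therefore rest on the variation among libraries alone, and part of it may be technical.

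Irx3 and Irx4 belong to the Iroquois family of homeodomain transcription factors. Irx4 is a classical marker of ventricular as opposed to atrial muscle, and Irx3 is found in the trabeculae, the inner muscular ridges from which the Purkinje fibres of the conduction system form. Irx3 is known in the adult heart as a regulator of the gap-junction genes Gja1 and Gja5, which couple heart muscle cells electrically.

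The 6 libraries held 40621857 to 45946741 estimated counts. The Spearman correlation between transcript length and the level of a gene relative to the series ran from -0.434 to -0.411 in WT, was -0.51 in DKO 5, -0.392 in DKO 7 and -0.292 in DKO 10, and ran from 0.056 to 0.483 in the other 12 libraries. DKO 5 stood apart within its group. Its median absolute log2 distance from the mean of the other libraries of its own group was 0.222. The same distance was 0.163 and 0.152 for DKO 7 and 10, and 0.092 to 0.103 for the WT libraries. Y-linked genes were near 0 in WT 3 and expressed in the other 5, so 1 of the 6 libraries differed from the rest in sex. The ventricular myosin light chain Myl2 was at 4853 to 5957 CPM (reads of a gene relative to all reads of its library, on 1 scale) in all 6, and the liver and lung markers summed to 2.85 to 4.25 CPM, with albumin (Alb) and surfactant protein C (Sftpc) too low to be tested.

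Irx3 transcript was strongly reduced in DKO. Its level was 22.1, 24.0 and 28.5 CPM in WT 1, 2 and 3, and 3.18, 4.33 and 3.80 CPM in DKO 5, 7 and 10. The groups did not overlap, and the log2 fold change was -2.72 ± 0.129 (SE; edgeR quasi-likelihood test, adjusted p = 2e-09). The remaining Irx3 counts were assigned almost wholly to transcript Irx3-202, which took 97.1% to 100% of the gene in DKO and 81.4% to 95.9% in WT, while Irx3-201 had 0, 0 and 4.7 estimated counts in DKO against 161.2, 171.6 and 49.2 in WT.

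Irx4 transcript, in contrast, was higher in the libraries labelled as Irx4 knockout. Its level was 82.6, 78.8 and 125.6 CPM in WT and 281.8, 217.7 and 260.3 CPM in DKO 5, 7 and 10. Every DKO library lay above every WT library, with a log2 fold change of 1.40 ± 0.138 (adjusted p = 0.000104). Of the 2 protein-coding transcripts listed, Irx4-202 held 76.9% to 86.6% of the counts in WT and 90.0% to 92.3% in DKO. Polyadenylated RNA from a targeted locus does not show whether protein is made, so the Irx4 level does not check this label. The Irx4 knockout alone averaged 224.7 ± 12.6 CPM of Irx4 (SD, n = 3). The Irx3 knockout averaged 144.7 ± 11.6 CPM and dHet 185.2 ± 8.05 CPM, both above the WT mean of 95.6 CPM. WT differs from these groups in transcript-length profile, so an effect of genotype and a technical difference cannot be told apart. In double knockouts 2, 3 and 4 the mean was 229.5 ± 8.04 CPM. Their log2 fold change over dHet was 0.31 (same test, unadjusted p = 0.0359, adjusted p = 0.464), smaller than the 1.40 over WT. The other family members tested, Irx1, Irx2, Irx5 and Irx6, gave no call in either direction, with a median log2 fold change of 0.14. Irx1 was at 11.9 to 14 CPM in WT and 13.5 to 16.2 CPM in DKO. Irx6 was at 1.65 to 3.55 CPM in WT and 2.67 to 6.17 CPM in DKO (log2 fold change 0.93, adjusted p = 0.221). In double knockouts 2, 3 and 4 over dHet the log2 fold changes were 0.89 for Irx6, -0.46 for Irx2, -0.23 for Irx1 and -0.24 for Irx5. None of these had an adjusted p of at most 0.05.

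Across all 16600 tested genes, 239 (1.44%) passed an adjusted p of 0.05. They are the genes called in what follows; 107 were higher (0.645% of the tested genes) and 132 lower (0.795%) in DKO. The median absolute log2 fold change of the 239 was 0.61, and 59 reached at least 1, of which 16 rose and 43 fell. The median over all tested genes was 0.009. In 238 of the 239 the 3 DKO libraries did not overlap the 3 WT libraries, as was true of 15% of all tested genes. These calls took the spread from all 18 libraries. A fit of the 6 compared libraries alone called 16 genes (0.102%), 12 of them among the 239, and the common dispersion was 0.0283 in these 6 libraries, 0.039 among DKO 5, 7 and 10, 0.0174 among WT and 0.0163 in the other 12 libraries. Without DKO 5 the number of calls was 576 (3.43%), with 401 higher (2.39%) and 175 lower (1.04%). It was 67 without WT 1, 124 without WT 3 and 546 without DKO 10. In 50 genes (0.301%), 23 higher and 27 lower, the call was made in each of the 6 fits that left out 1 library.

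**Figure D1:**
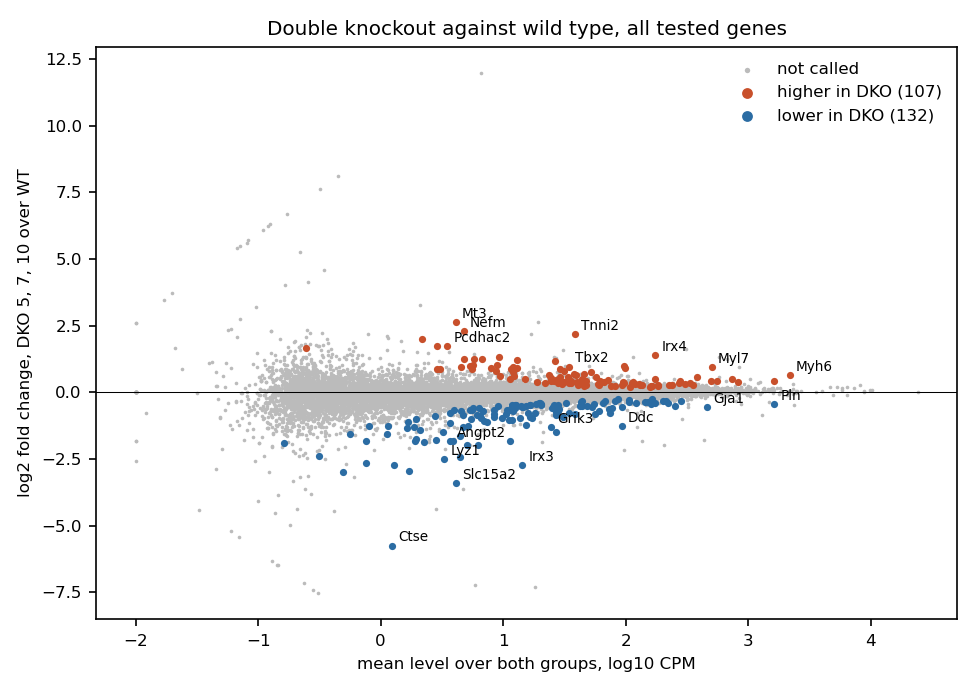
Mean level over both groups (x axis, log10 CPM) and log2 fold change of DKO 5, 7 and 10 over WT (y axis) of each tested gene. Orange points are the 107 genes called higher, blue points the 132 called lower and grey points the genes not called, some of which changed more in size.

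The short DNA palindrome ACANNTGT, bound by Iroquois proteins in vitro, was looked for in the 250 bases before the start of each gene in RefSeq promoter sequences (GRCm38.p6). The letters read the same on both strands and always contain CANNTG, the E-box bound by basic helix-loop-helix factors. The promoters of a whole chromosome, that of the called genes Pcdhac2, Megf10, Fam69c and Gata6, were left out of this search. The shares therefore do not cover the whole genome. Among the promoters searched, the palindrome was present in those of 1945 of 27025 genes (7.2%). It was present in 560 of 12149 tested genes that matched one (4.61%) and in 11 of 182 called genes that did (6.04%). Of these called genes, 5 of 84 higher and 6 of 98 lower held it. Of the 20 genes with the largest rises and falls that had a searched promoter, 1 held it, the Wnt antagonist gene Wif1. The matches of the 11 genes are printed so that their letters can be compared; a match is a description and not a bound site. Each line gives the gene and the surrounding bases on the strand of the gene, 5′ to 3′, with the palindrome in capitals. For Fam78a and Prss23, first and second give the order of printing and not an order along the gene.
Wif1: ccggccatccACACGTGTctcttcgggc (chr10:121033783-121033810, plus strand)
Gm572: gtgttgacacACATCTGTgcattctggc (chr4:148643206-148643233, plus strand)
Akr1b10: ttttgtccacACACCTGTgcgggcactg (chr6:34384080-34384107, plus strand)
Acsf3: agatctggtaACAGATGTcaggcaccta (chr8:122775315-122775342, plus strand)
Tnnt1: gaagccgatgACAGGTGTtggaccccca (chr7:4516117-4516144, minus strand)
Ppargc1a: atcgggtttcACATTTGTgtcctattgt (chr5:51567812-51567839, minus strand)
Sec22b: acaaaaattcACAAATGTgggcgggact (chr3:97901088-97901115, plus strand)
Calr: atggaaagggACAGCTGTaggtctaaac (chr8:84846962-84846989, minus strand)
Fam78a, first start: atttactgtgACAACTGTctccac (chr2:32064165-32064188, minus strand)
Fam78a, second start: tgctgctgtgACAGCTGTccctccgccg (chr2:32065059-32065086, minus strand)
Prss23, first start: ttacatgttaACAGTTGTggtttaggtc (chr7:89527327-89527354, minus strand)
Prss23, second start: ccgggcgcccACACCTGTctgagcggcg (chr7:89517481-89517508, minus strand)
Nrtn: gagcgcccctACAGCTGTgggcaggacg (chr17:56757636-56757663, minus strand)
Wif1, Gm572, Akr1b10, Acsf3, Tnnt1 and Ppargc1a fell in DKO, and Sec22b, Calr, Fam78a, Prss23 and Nrtn rose. Wif1 fell by 1.81 on the log2 scale, while the others moved by 0.27 to 0.88 in size. The palindrome lay from 14 to 211 bases before the start.

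Genes of impulse conduction and calcium cycling changed singly, not as whole lists. Gja1, which encodes connexin 43, the main gap-junction protein of working heart muscle, was at 593.4, 580.3 and 475.1 CPM in WT and 360.8, 339.7 and 406.7 CPM in DKO 5, 7 and 10. All 3 DKO libraries lay below all 3 WT libraries, and the log2 fold change was -0.57 ± 0.0859 (adjusted p = 0.00285). It was the 1 member called among 18 tested gap-junction and intercalated-disc genes, whose median was 0.08. The mean of Gja1 was 536.0 ± 41.5 CPM in the Irx3 knockout and 322.1 ± 9.04 CPM in the Irx4 knockout (SD, n = 3 each). It was 324.7 ± 19.4 CPM in double knockouts 2, 3 and 4 and 495.7 ± 17.5 CPM in dHet. The part of each targeted gene in the fall was not tested. Gja5, which encodes connexin 40 of atrial muscle and the Purkinje system, was at 192.9 to 220.6 CPM in WT and at 411.8, 190.5 and 265.2 CPM in DKO, so the groups overlapped and only DKO 5 was far above WT (adjusted p = 0.279).

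Pln encodes phospholamban, the brake on the calcium pump of the sarcoplasmic reticulum. It was at 2057, 1726 and 1816 CPM in WT and 1365, 1403 and 1392 CPM in DKO. The DKO libraries were close to each other and below WT, with a log2 fold change of -0.43 ± 0.0696 (adjusted p = 0.00493). Pln was the 1 call among 20 calcium-handling genes (median 0.05), in which the ryanodine receptor and pump partners gave none. Jph1, a junctophilin that holds the membranes of the release unit together and lies outside that list, fell by 0.60 (adjusted p = 0.0234).

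Among 25 tested potassium and sodium channel genes 1 rose and 2 fell (median -0.13). Kcnh7, an ERG-type potassium channel gene, was at 8.31, 9.95 and 8.40 CPM in WT and 13.9, 17.3 and 19.4 CPM in DKO (log2 fold change 0.92 ± 0.143, adjusted p = 0.00374). Kcnk3, which encodes the background channel TASK-1, was at 91.8, 104.2 and 71.7 CPM in WT and 54.2, 54.2 and 66.2 CPM in DKO (log2 fold change -0.62 ± 0.118, adjusted p = 0.0158). The sodium channel subunit gene Scn3b fell, with 1.54 to 1.74 CPM in WT and 0.598 to 0.727 CPM in DKO (-1.25, adjusted p = 0.0293).

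Tbx2, a T-box repressor that keeps the muscle of the atrioventricular canal from taking on chamber character, was at 21.4, 21.8 and 26.5 CPM in WT and 52.1, 43.5 and 40.2 CPM in DKO. Every DKO value exceeded every WT value (log2 fold change 0.96 ± 0.139, adjusted p = 0.00231). Of 20 atrioventricular canal and pacemaker genes, 2 rose, Tbx2 and Rgs6, and 1 fell, Smoc2, with a median of 0.15. Rgs6, a brake on muscarinic G-protein signals to the pacemaker, rose by 0.99 (adjusted p = 0.0239). Bmp2, the canal signal known to lie upstream of Tbx2, was at 16.6 to 20.8 CPM in WT and 26.1 to 29.3 CPM in DKO without reaching the threshold (adjusted p = 0.0519). The close relative Tbx3 overlapped between the groups (log2 fold change 0.08, adjusted p = 0.884). The summed level of the list was 592.3 to 618.0 CPM in WT and 680.9 to 730.3 CPM in DKO.

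Atrial muscle genes were the list with the highest median. Of 16 tested, 5 rose and none fell, and 13 had a log2 fold change above 0, with a median of 0.36 (0.43 without DKO 5). Of all tested genes 0.645% rose. Like the other lists, this one was chosen with earlier results of these data known, so its counts and median are a description only. The atrial myosin light chain gene Myl7 was at 321.4, 468.6 and 244.0 CPM in WT and 644.4, 711.1 and 631.3 CPM in DKO. All DKO libraries were above the highest WT library, WT 2 (log2 fold change 0.94 ± 0.159, adjusted p = 0.00915). Mybphl, which encodes a myosin-binding protein of atria and conduction system, was at 4.79, 7.90 and 3.29 CPM in WT and 13.8, 10.7 and 15.4 CPM in DKO (log2 fold change 1.32 ± 0.263, adjusted p = 0.0185). Stard10, a lipid-transfer protein gene, was at 17.3, 13.2 and 18.4 CPM against 50.2, 26.6 and 32.6 CPM, highest in DKO 5 (1.16 ± 0.180, adjusted p = 0.00397). The other 2 were Myl4, a second atrial light chain (0.43, adjusted p = 0.0158), and Tbx5, a T-box factor of the atria and left ventricle (0.43, adjusted p = 0.0118).

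The rest of the atrial list was mixed. Nppa and Sln, atrial natriuretic peptide and the atrial pump regulator sarcolipin, overlapped between groups (974.0 to 1274 against 1240 to 1758 CPM, and 1.34 to 4.31 against 4.08 to 5.96 CPM). Nr2f2, the nuclear receptor that sets atrial identity, was at 27.4 to 28.0 CPM in WT and 28.1 to 32.3 CPM in DKO (adjusted p = 0.729), and Kcna5 and Bmp10 had log2 fold changes below 0. The summed level of the atrial list was 2797 to 3665 CPM in WT and 4140 to 4739 CPM in DKO. In these bulk libraries a larger share of atrial or canal tissue and a higher level per ventricular cell cannot be told apart, just as fewer cells of a type and less RNA per cell cannot.

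**Figure D2:**
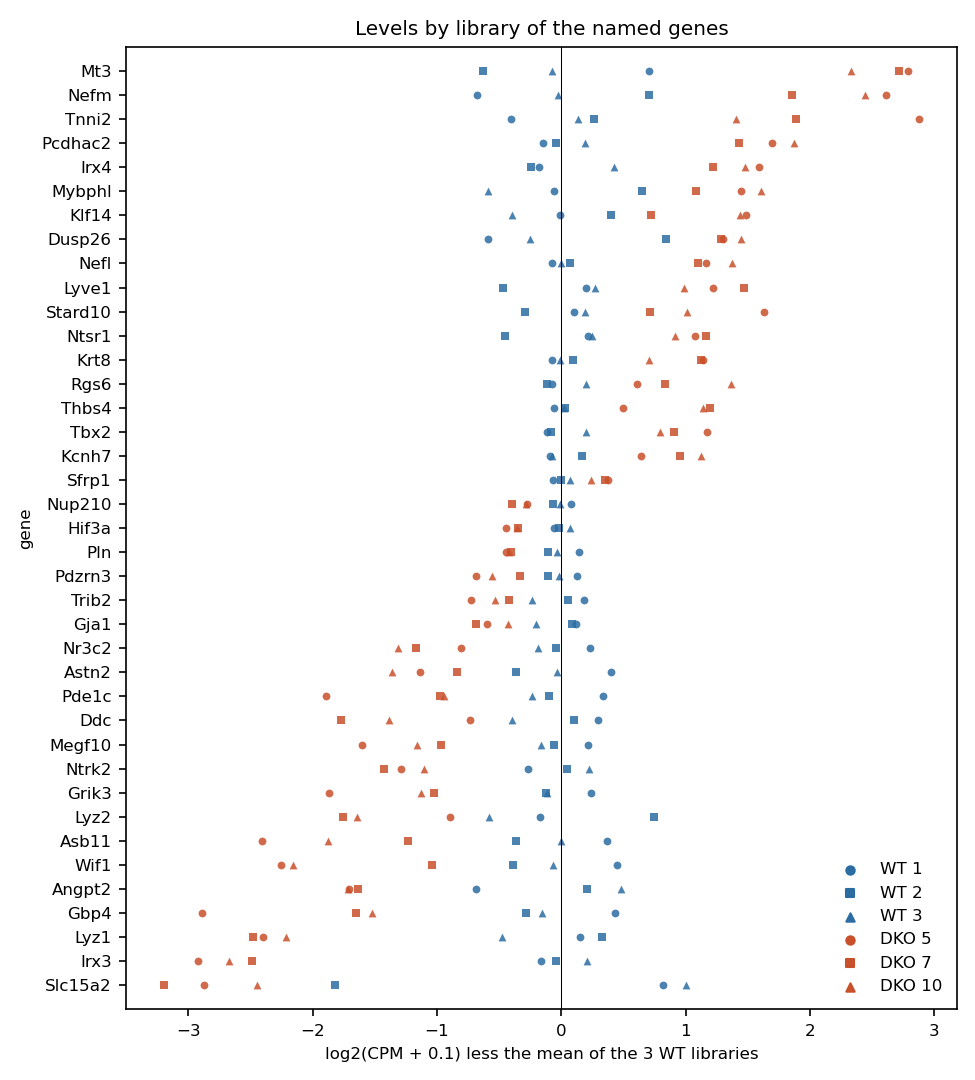
Level of each gene in each library as log2(CPM + 0.1) less the mean of the 3 WT libraries (x axis), for the targeted genes, the largest rises and falls and the genes called in both library sets (y axis). Circles, squares and triangles are WT 1, 2 and 3 (blue) and DKO 5, 7 and 10 (orange); the groups are apart in each gene, and in Slc15a2 WT 2 lies far from WT 1 and 3.

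Ventricular identity genes did not move as a list. Of 10 tested, 1 rose, Irx4 itself, and 1 fell, Pln, and the median was 0.01. Hey2, a repressor of atrial genes in compact ventricular muscle, was at 176.4 to 193.2 CPM in WT and 178.5 to 192.6 CPM in DKO, and Myl2, Myl3 and Myh7 gave no call. Among 11 compact-layer genes Fhl2, a LIM-domain protein of the sarcomere and nucleus, rose (0.50, adjusted p = 0.0374) and Mycn, a driver of growth of the compact layer, fell (median 0.06). Mycn was at 49.1, 56.2 and 44.4 CPM in WT and 35.4, 34.2 and 33.9 CPM in DKO (log2 fold change -0.53 ± 0.107, adjusted p = 0.0185). Of 17 trabecular and Purkinje precursor genes the targeted Irx3 was the 1 call (median -0.06). Slit2, a guidance ligand of the trabeculae, was lower without reaching the threshold, at 90.0, 113.6 and 71.4 CPM against 46.9, 46.1 and 71.0 CPM (adjusted p = 0.0634).

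Of 31 tested sarcomere genes 3 rose, Myh6, Myl7 and Myl4, and none fell. In 25 the log2 fold change was above 0, and the median was 0.16. In 11 the DKO libraries lay wholly above WT and in 0 wholly below, beside 7.98% and 7.04% of all tested genes. Myh6, the fast alpha myosin heavy chain gene, was at 1729, 1810 and 1553 CPM in WT and 2917, 2012 and 3070 CPM in DKO (log2 fold change 0.65 ± 0.120, adjusted p = 0.0122). Acta1, the skeletal alpha-actin gene that is also used by fetal heart, was at 58.5 to 70.4 CPM against 104.7, 198.7 and 192.1 CPM and just missed the threshold (adjusted p = 0.072). The median of this list in the second set of libraries was 0.01.

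Of 16 tested fast skeletal muscle genes, the troponin genes Tnni2 and Tnnt3 rose and none fell (median 0.21). Tnni2, fast skeletal troponin I, was at 10.3, 16.4 and 15 CPM in WT and 101.0, 50.7 and 36.3 CPM in DKO. Its groups were far apart with the highest level in DKO 5 (log2 fold change 2.17 ± 0.356, adjusted p = 0.011; 1.65 without DKO 5). The skeletal muscle determination genes Pax7 and Myod1 and the myosin genes Myh2 and Myh4 were at or near 0 in all 6 libraries, Pax7, Myh2 and Myh4 at 0. Myog and the myosin genes Myh3 and Myh8 were tested and not called. Mybpc1 was at 7.57 to 9.38 CPM in WT and 12.5 to 18.6 CPM in DKO, without a call (adjusted p = 0.176). In 5 of the 16 the DKO libraries lay wholly above WT and in 0 wholly below, beside 7.98% and 7.04% of all tested genes. Tnnt1, slow skeletal troponin T, moved the other way and fell by 0.51 (adjusted p = 0.0285).

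Of 22 tested cardiac transcription factors 3 rose, Tbx2, Tbx5 and Gata6, and none fell (median 0.13). Gata6, a zinc-finger factor of heart muscle and outflow tract, moved little, from 156.9 to 176.1 CPM in WT to 185.6 to 204.4 CPM in DKO (log2 fold change 0.23 ± 0.0534, adjusted p = 0.0439). Nkx2-5 lay just outside the threshold, at 81.8 to 86.6 CPM in WT and 135.3, 109.2 and 91.2 CPM in DKO (adjusted p = 0.0505). Outside the fixed lists, several muscle genes passed the test: Popdc2, a cyclic AMP-binding membrane protein needed for pacemaking, rose from 309.8, 306.7 and 312.2 CPM to 494.3, 463.3 and 421.6 CPM (0.57 ± 0.0821, adjusted p = 0.00226), Mical2, an actin-oxidising enzyme, by 0.43, Asb2, a ubiquitin-ligase subunit of muscle, by 0.43, and Myl9, a smooth-muscle regulatory light chain, by 0.51. Sphkap, an anchor for protein kinase A, was at 36.7, 36.4 and 32.8 CPM in WT and 51.2, 58.7 and 59.0 CPM in DKO, and it is among the few genes that the 6 libraries alone also called (adjusted p = 0.0492 there). Thbs4, a matrix thrombospondin, was at 62.7, 66.8 and 66.4 CPM in WT and 92.1, 149.5 and 144.2 CPM in DKO (log2 fold change 0.98 ± 0.130, adjusted p = 0.00169).

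Genes best known from neurons changed in both directions. Of 23 tested, 4 rose and 5 fell, with a median of 0.04 (-0.20 without DKO 5); several members were put on the list with their earlier results known, so the count is a description only. The neurofilament light gene Nefl was at 3.79, 4.20 and 3.98 CPM in WT and 9.06, 8.66 and 10.5 CPM in DKO, a narrow range in each group (log2 fold change 1.24 ± 0.177, adjusted p = 0.00226). Nefm, neurofilament medium, was at 0.893, 2.49 and 1.46 CPM against 9.59, 5.64 and 8.56 CPM (2.30 ± 0.408, adjusted p = 0.0117), whereas Nefh, the heavy subunit, stayed under 1 CPM in all 6 libraries. Pcdhac2, a clustered protocadherin of neuronal self-recognition, was at 1.44, 1.55 and 1.84 CPM in WT and 5.40, 4.49 and 6.14 CPM in DKO (1.73 ± 0.235, adjusted p = 0.00169). Pcdhac2 shares its last exons with the other alpha protocadherins, so the assignment of its reads is uncertain. The neurotensin receptor gene Ntsr1 rose by 1.04 (adjusted p = 0.015), and Nrn1, a neurite-growth protein outside the list, by 1.73 (adjusted p = 0.00118).

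The members that fell were Ddc, Grik3, Gpr37, Plppr1 and Lgi3. Ddc, whose enzyme makes dopamine and serotonin and which has a paternally expressed form in embryonic heart muscle, was at 157.5, 138.5 and 97.6 CPM in WT and 77.3, 37.7 and 49.1 CPM in DKO (log2 fold change -1.26 ± 0.255, adjusted p = 0.0267). Grik3, a kainate receptor gene, was at 41.3, 32.2 and 32.4 CPM against 9.54, 17.2 and 16 CPM (-1.31 ± 0.224, adjusted p = 0.0113). Plppr1, a membrane protein of neurite outgrowth, was at 9.72, 8.58 and 8.06 CPM against 4.23, 4.79 and 4.50 CPM (-0.96 ± 0.124, adjusted p = 0.00118). Several genes of autonomic neurons were nearly silent in both groups: Chga and Ina were too low to be tested, and Th and Dbh were under 1 CPM in all 6 libraries. Of 12 tested Schwann cell and neural crest genes none was called (median -0.10), and Sox10 and Foxd3 were too low to be tested. Among 27 axon guidance genes, Ntrk2, a receptor for brain-derived neurotrophic factor, was the 1 call (-1.31, adjusted p = 0.0159), with a median of -0.16.

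Signalling lists gave scattered single calls. In the Wnt list (24 tested, median 0.04) the antagonist gene Wif1 fell and Sfrp1, a second secreted antagonist, rose. Wif1 was at 8.06, 4.46 and 5.61 CPM in WT and 1.15, 2.81 and 1.24 CPM in DKO (log2 fold change -1.81 ± 0.339, adjusted p = 0.0143). Sfrp1 was at 259.7, 272.4 and 286.0 CPM against 353.8, 347.1 and 321.1 CPM (0.32 ± 0.0631, adjusted p = 0.0161). In the Notch list (18 tested, median -0.10) the ligand gene Jag2 rose by 0.52 (adjusted p = 0.0348) and the non-canonical ligand gene Dlk1 fell by 0.57 (adjusted p = 0.0491), and the receptors and Hey genes gave no call. Among 22 BMP and TGF-beta genes Bmp5 rose by 0.66 (adjusted p = 0.0445; median 0.09), and among 25 FGF, neuregulin and VEGF genes the phosphatase gene Dusp26 rose by 1.24 (adjusted p = 0.0285; median 0.01). Outside the lists the chemokine gene Cxcl12 fell by 0.42, and Nr3c2, the mineralocorticoid receptor gene, fell from 11.8, 9.74 and 8.80 CPM to 5.71, 4.41 and 3.98 CPM (-1.11 ± 0.160, adjusted p = 0.00231).

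Matrix, energy and growth lists were nearly without calls. Of 26 extracellular matrix genes, Hmcn2 (hemicentin 2) rose by 0.94 (adjusted p = 0.0335; median -0.01), and of 21 basement membrane genes none was called. Elastin (Eln) had the widest gap without a call, at 471.3, 527.9 and 1044 CPM in WT and 112.8, 259.6 and 218.3 CPM in DKO (adjusted p = 0.142). Of 28 cell cycle genes none was called, with a median of 0.03 (0.18 without DKO 5), and their sum was 3615 to 3678 CPM in WT and 2889, 4459 and 3770 CPM in DKO 5, 7 and 10. DKO 5 was thus the lowest and DKO 7 the highest of the 6. None of 26 oxidative phosphorylation, 25 glycolysis and hypoxia or 17 sterol synthesis genes was called.

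Of 23 fatty acid use genes, Ppargc1a, the co-activator of mitochondrial genes, was the 1 call, at 154.8, 129.1 and 134.8 CPM in WT and 89.9, 111.6 and 111.5 CPM in DKO (log2 fold change -0.42 ± 0.0890, adjusted p = 0.024). In this list 4 members had a log2 fold change above 0 and the median was -0.11. Hif3a, which encodes an inhibitory hypoxia-inducible factor subunit, fell from 156.5, 160.8 and 171.1 CPM to 119.3, 127.7 and 127.4 CPM (-0.38 ± 0.0703, adjusted p = 0.0117). Among 16 metallothionein and oxidative stress genes Mt3 rose (median 0.02), among 20 immediate early and heat shock genes Jun fell by 0.33 (adjusted p = 0.0489; median 0.15), and among 25 interferon-response genes the GTPase gene Gbp4 fell (median -0.13; -0.31 without DKO 5). Gbp4 was at 13.1, 7.96 and 8.71 CPM in WT and 1.22, 3.02 and 3.31 CPM in DKO (log2 fold change -1.98 ± 0.385, adjusted p = 0.0196). A few genes of protein folding and export in the endoplasmic reticulum, for which no list was fixed and which were picked after their values were seen, also rose: the chaperone genes Calr by 0.37, Dnajb11 by 0.40 and Creld2 by 0.58, and the transport gene Sec13 by 0.34.

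**Figure D3:**
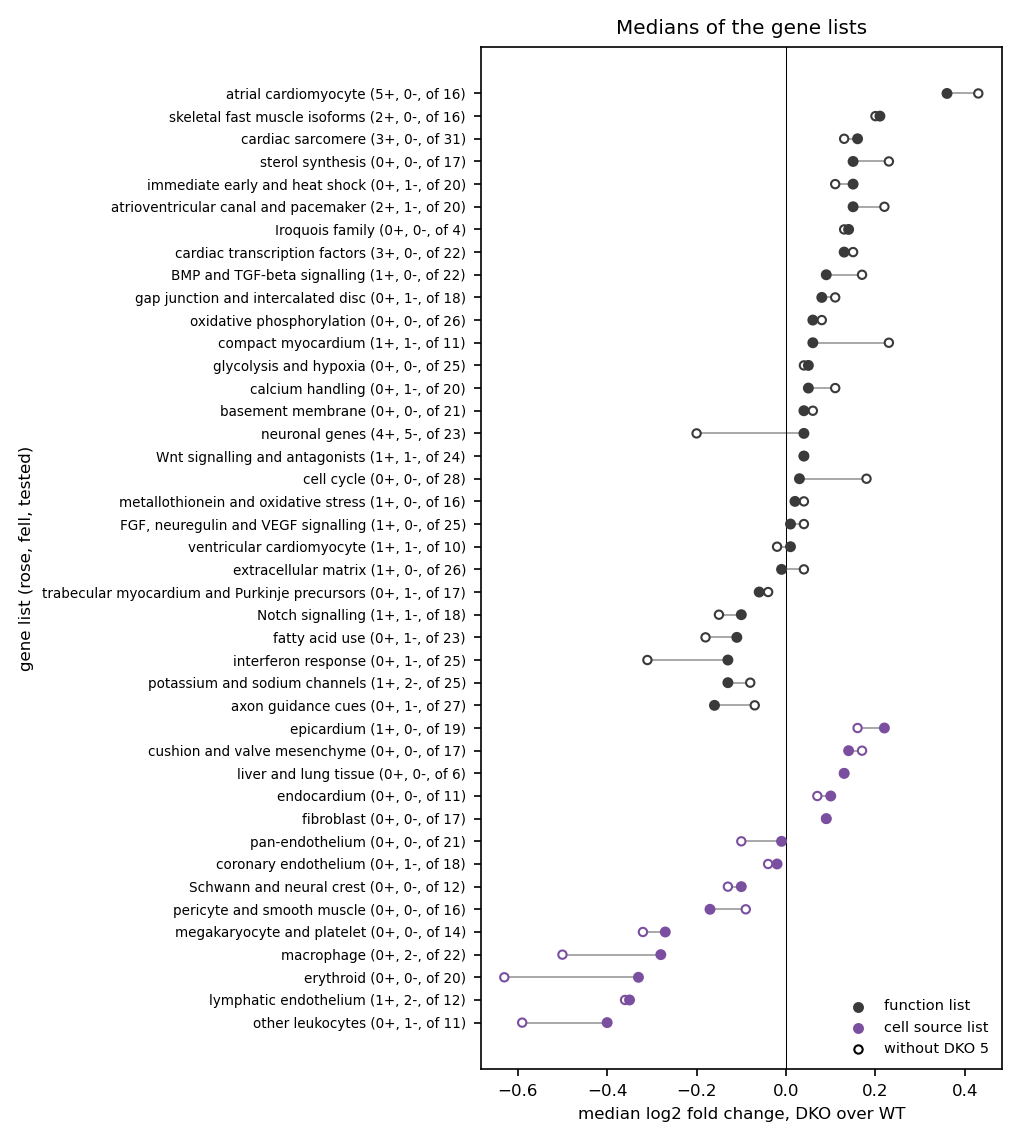
Median log2 fold change of DKO over WT (x axis) of each gene list (y axis), with the numbers of genes that rose (+) and fell (-) and the number tested. Filled points use all 6 libraries and open points leave out DKO 5; black marks function lists and purple marks cell source lists. The atrial list has the highest median, 0.36, and the blood-cell and lymphatic lists lie farthest to the left.

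The blood-cell lists and the lymphatic list had the lowest medians of the cell source lists, with few calls, but the macrophage median rested on WT 2. Of 22 macrophage genes 2 fell, the lysozyme genes Lyz1 and Lyz2, none rose, and the median was -0.28 (-0.50 without DKO 5, 0.04 without WT 2 and 0.01 in the second set of libraries). Lyz2 was at 32.6, 61.7 and 24.5 CPM in WT and 19.7, 10.8 and 11.7 CPM in DKO (log2 fold change -1.49 ± 0.297, adjusted p = 0.0225). Lyz1 was at 6.07, 6.89 and 3.91 CPM against 0.956, 0.899 and 1.10 CPM (-2.51 ± 0.260, adjusted p = 0.000104). The lysozyme genes are near-identical neighbours between which reads can be split, so their separate values are uncertain. In the second set of libraries Lyz1 had a log2 fold change of -1.12 (unadjusted p = 0.000453, adjusted p = 0.121). That of Lyz2 was -0.85 there (unadjusted p = 0.014, adjusted p = 0.387). The defining macrophage receptor gene Csf1r overlapped between groups, at 29.4, 40.7 and 31.0 CPM in WT and 34.9, 25.2 and 23.1 CPM in DKO, and Mrc1 was at 25.5 to 37.1 and 27.7 to 30.1 CPM. The macrophage sum was 203.0, 360.4 and 199.4 CPM in WT and 222.9, 177.4 and 170.6 CPM in DKO, so WT 2 was the high library, and the part of macrophage number in the lysozyme calls was not tested. Itgam, an integrin gene of myeloid cells outside the list, fell from a mean of 3.05 to 0.382 CPM (adjusted p = 0.0463).

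Of 11 tested genes of other leukocytes, Cpa3, a mast cell protease gene, fell by 1.83 (adjusted p = 0.0449; median -0.40), and Cd3e, Ncr1 and Nkg7 were at 0 in all 6 libraries. Of 14 megakaryocyte and 20 erythroid genes none was called, with medians of -0.27 and -0.33 (erythroid -0.63 without DKO 5). The erythroid sum was 8134, 5705 and 6170 CPM in WT and 6922, 3983 and 3811 CPM in DKO 5, 7 and 10. The embryonic globins Hbb-y, Hbb-bh1 and Hba-x, which are replaced by adult globins as development proceeds, made up 13.3%, 39.1% and 18.2% of all globin counts in WT 1, 2 and 3 and 34.6%, 23.6% and 30.4% in DKO 5, 7 and 10. This share, computed after the data were seen, was thus higher in WT 2 than in any DKO library.

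Lymphatic endothelial genes split. Of 12 tested, Lyve1, the hyaluronan receptor of lymphatic vessels and of some macrophages, rose, while Itga9, an integrin of lymphatic valves, and Pdpn, podoplanin, fell (median -0.35). Lyve1 was at 8.80, 5.52 and 9.28 CPM in WT and 18, 21.4 and 15.3 CPM in DKO (log2 fold change 1.21 ± 0.204, adjusted p = 0.00739). Itga9 was at 94.5, 94.2 and 89.7 CPM against 54.2, 64.4 and 65.9 CPM (-0.59 ± 0.0849, adjusted p = 0.00226). Prox1, the master regulator of lymphatic fate that heart muscle also expresses, overlapped at 126.0 to 134.6 and 95.2 to 136.2 CPM.

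Vessel and lining cells differed little. None of 21 pan-endothelial genes (median -0.01), 11 endocardial genes (0.10), 17 fibroblast genes (0.09), 17 cushion and valve genes (0.14) or 16 pericyte and smooth muscle genes (-0.17) was called. In the coronary list (18 tested, median -0.02) Angpt2, the antagonist ligand of the Tie2 receptor in vessel remodelling, fell from 3.35, 6.32 and 7.68 CPM to 1.60, 1.69 and 1.59 CPM (log2 fold change -1.83 ± 0.328, adjusted p = 0.0113). In the epicardial list (19 tested, median 0.22) the keratin gene Krt8 rose from 5.63, 6.35 and 5.89 CPM to 13.2, 13.1 and 9.75 CPM (1.01 ± 0.195, adjusted p = 0.0153). The epicardial defining genes Wt1 and Upk3b were at 20.5 to 21.6 against 24.1 to 26.7 CPM and at 49.2 to 69.1 against 52.0 to 73.2 CPM, neither called.

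**Figure D4:**
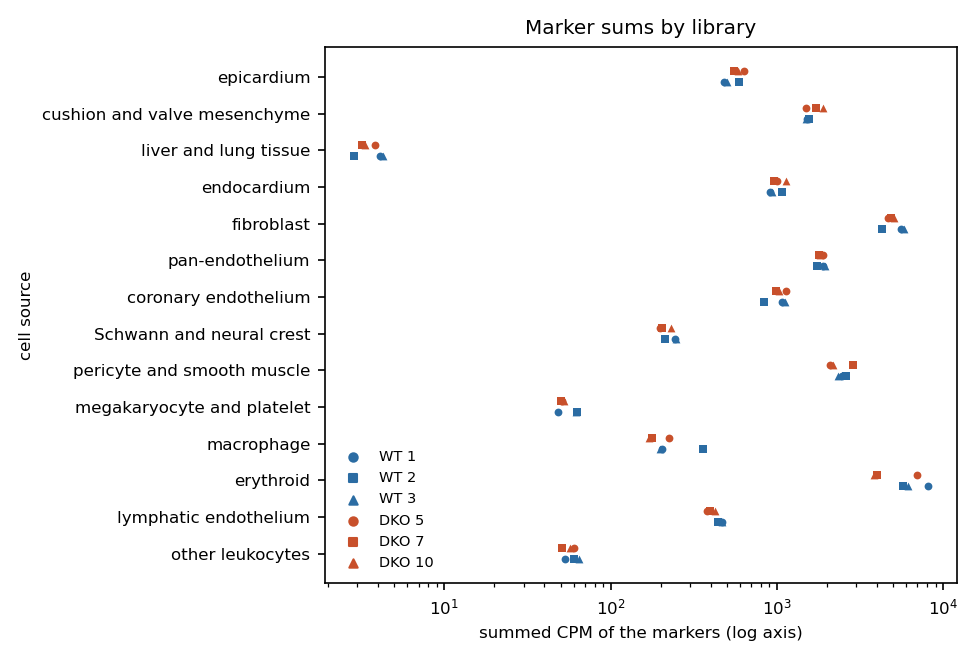
Summed level of the marker genes of each cell source (y axis) in each library (x axis, CPM on a log axis). Circles, squares and triangles are WT 1, 2 and 3 (blue) and DKO 5, 7 and 10 (orange). Liver and lung markers sum to at most 4.25 CPM, the macrophage sum is highest in WT 2, and the erythroid sum is lowest in DKO 7 and 10.

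Other large falls had no shared list. Slc15a2, a peptide transporter gene, was at 9.87, 1.5 and 11.2 CPM in WT and 0.669, 0.517 and 0.938 CPM in DKO, so WT 2 was near the DKO level (log2 fold change -3.40 ± 0.672, adjusted p = 0.0219). Ctse, the gene of the aspartic protease cathepsin E, was at 1.93, 2.51 and 2.77 CPM in WT and at 0, 0.109 and 0.0234 CPM in DKO, a near absence in all 3 (adjusted p = 0.000124). Fam69c, a kinase-like gene of the endoplasmic reticulum, was at 2.43, 2.33 and 1.88 CPM against 0.263, 0.3 and 0.422 CPM (-2.74 ± 0.343, adjusted p = 0.00101). These 3 genes were at low level in both groups, and Ctse and Fam69c were called in the 6 libraries alone (adjusted p = 0.017 for each) while Slc15a2 was not (adjusted p = 0.285). Asb11, a ubiquitin-ligase subunit, was at 22.3, 13.4 and 17.2 CPM in WT and 3.18, 7.30 and 4.62 CPM in DKO (-1.81 ± 0.322, adjusted p = 0.0128). Megf10, a receptor of satellite cells and phagocytosis, fell by 1.26 and Pde1c, a calcium-activated phosphodiesterase, by 1.24. On chromosome 2 the zinc-finger gene Zfp966 fell by 1.03 together with a group of similar gene models, among which reads can be split.

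Some genes with steady calls belong to no list and are described here after their values were seen, each called in every fit that left out 1 library. Kalrn, an activator of Rac-type GTPases, was at 51.3, 54.2 and 41.3 CPM in WT and 25.2, 27.4 and 31.6 CPM in DKO (log2 fold change -0.80 ± 0.117, adjusted p = 0.00231), and Tiam2, another Rac activator, fell by 0.99. Cttnbp2, a cortactin-binding protein gene, fell by 0.93, and Spock2, a matrix proteoglycan gene, went from 12.6 to 13.8 CPM in WT to 6.43 to 6.86 CPM in DKO. The RNA-binding protein gene Rbm6 and the splicing kinase gene Clk1 fell by 0.80 and 0.44. In the other direction, Cap2, an actin-regulating protein of heart muscle, was at 303.2, 281.6 and 299.4 CPM in WT and 368.2, 376.0 and 378.2 CPM in DKO, with little spread in DKO (0.34 ± 0.0551, adjusted p = 0.00465). Stk26, a kinase gene, rose by 0.81, Igfbpl1, an insulin-like growth factor binding protein-like gene, by 0.77, and Ddah1, whose enzyme degrades an inhibitor of nitric oxide synthase, by 0.58. In the second set of libraries Kalrn, Cap2, Stk26, Igfbpl1, Ddah1 and Spock2 had the same sign with an unadjusted p of at most 0.05, while Cttnbp2, Tiam2, Rbm6 and Clk1 did not reach that p. By the rule for the largest changes, the transcription factor gene Klf14 also rose by 1.25 (adjusted p = 0.0117) and Astn2, a gene of neuronal migration, fell by 1.16 (adjusted p = 0.0267).

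The second set of libraries gave the same direction for most of these genes. Irx3 and Irx4 left aside, 198 of the 237 called genes (83.5%) had a fold change of the same sign in double knockouts 2, 3 and 4 over dHet, and 106 (44.7%) also had an unadjusted p of at most 0.05 there, against 60.3% and 7.5% of all 16598 other tested genes. An unadjusted p of at most 0.05 in the opposite direction was found for 3, which are named after their values were seen: Ccdc110 (log2 fold changes of -3.00 and 1.37), Pcdh8 (-2.39 and 1.36) and Gm49599 (1.65 and -0.82), all of them under 1 CPM on average in WT and DKO. Of the 48 genes called in each fit that left out 1 library, 44 (91.7%) had the same sign and 34 (70.8%) also the unadjusted p. These shares with an unadjusted p are not independent of the first calls, since the same fit gave the spread in the second set. The control there is not wild type but carries 1 altered copy of each gene, and this comparison had 15 calls at an adjusted p of 0.05 (0.0904%) and 1629 genes at an unadjusted p of 0.05 (9.81%), and 173 calls (1.06%) in a fit of the other 12 libraries alone. The genes called in both sets numbered 11, which is 4.6% of the 239 and 73.3% of the 15, all in the same direction: Irx3, Tbx2, Kcnh7, Pcdhac2, Sfrp1, Gja1, Pln, Trib2, Pdzrn3, Hif3a and Nup210.

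These genes were selected for passing in both sets; over all called genes the median change was smaller in the second set, 0.19 against 0.44 for the higher and -0.25 against -0.72 for the lower genes. Tbx2 had log2 fold changes of 0.96 and 1.05, Gja1 of -0.57 and -0.61, Pln of -0.43 and -0.42, Kcnh7 of 0.92 and 1.01 and Pcdhac2 of 1.73 and 1.89. Trib2, a pseudokinase gene, was at 125.4, 114.7 and 94.0 CPM in WT and 66.8, 82.6 and 76.2 CPM in DKO, and its change was -0.57 in both sets. Pdzrn3, a ubiquitin ligase of muscle and vessels, fell by 0.52 and by 0.79, and Nup210, a nuclear pore protein gene, by 0.32 and by 0.41. The medians of the atrial and canal lists were 0.41 and 0.30 in the second set, with Myl7 at 0.71 and Mybphl at 1.24, neither past the adjusted threshold there, while the canal gene Smoc2 was at -0.97 in the first set and -0.07 in the second. The fast troponin gene Tnni2 was at 1.44 in the second set, also short of the threshold.

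Other genes of the first comparison showed no such change. Ctse averaged 2.37 CPM in double knockouts 2, 3 and 4 and 2.40 CPM in dHet, as high as in WT. Angpt2 had a log2 fold change of 0.15 there, Ntrk2 of -0.01, Dusp26 of -0.09, Lyve1 of 0.19, Scn3b of 0.01, Pdpn of 0.00 and Slc15a2 of -0.37, and none had an unadjusted p under 0.05. Whether the difference between the 2 sets exceeds their error was not tested for these genes.

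**Figure D5:**
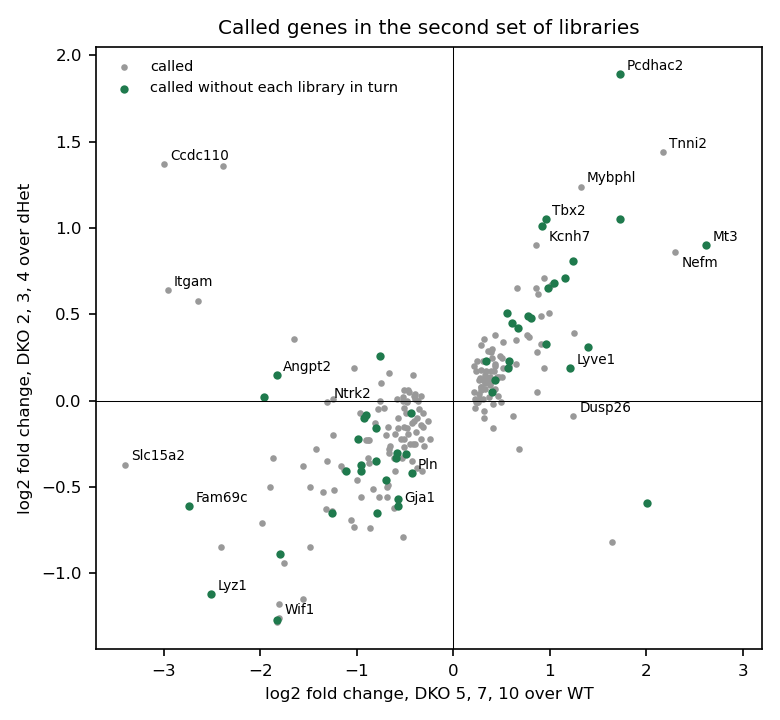
Log2 fold change of each called gene in DKO 5, 7 and 10 over WT (x axis) and in double knockouts 2, 3 and 4 over dHet (y axis), without Irx3 and Ctse. Green points are genes called in each of the fits that left out 1 library. Tbx2, Kcnh7, Pcdhac2, Gja1 and Pln lie in the quadrants of the same sign, and Angpt2 and Itgam among those of opposite sign.

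Genes near the targeted loci were counted separately, since a targeted allele travels with its surrounding chromosome. Of the 50 annotated genes on each side of Irx3, 23 were tested and 1 was called, Gnao1 (4.35%), and of those around Irx4, 33 were tested and 1 was called, Nkd2 (3.03%), against 1.44% of all genes. With 150 genes on each side, a width chosen after the data were seen, 4 of 107 around Irx3 were called, all higher (3.74%): Mylk3, Gnao1, Bbs2 and Mt3. Around Irx4 it was 2 of 90 (2.22%). On the whole of chromosome 8, 20 of 879 tested genes were called (2.28%).

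Mt3, a metallothionein gene best known from brain, and Bbs2, a component of the cilium transport complex, lie 54 and 52 genes from Irx3. Mt3 was at 1.79, 0.648 and 1.00 CPM in WT and 7.89, 7.52 and 5.74 CPM in DKO (log2 fold change 2.62 ± 0.369, adjusted p = 0.00226). Bbs2 was at 9, 7.59 and 7.92 CPM against 18.3, 13.6 and 15.9 CPM (0.96 ± 0.138, adjusted p = 0.00226). In the other 12 libraries, the mean level of Bbs2 was 15.4 ± 0.331 CPM in the Irx3 knockout and 8.29 ± 0.957 CPM in the Irx4 knockout. That of Mt3 was 4.23 ± 0.507 and 1.14 ± 0.674 CPM (SD, n = 3 each). Double knockouts 2, 3 and 4 averaged 15.6 ± 1.26 CPM of Bbs2 and 5.81 ± 0.61 CPM of Mt3. The means in dHet were 12.4 ± 2.48 and 3.09 ± 1.06 CPM. In the Irx3 knockout Bbs2 was near its DKO mean of 15.9 CPM, while Mt3 lay between its WT mean of 1.15 and its DKO mean of 7.05 CPM; in the Irx4 knockout both were near the WT level. An effect of Irx3 loss and an effect of the chromosome around the allele cannot be told apart.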

How the data were processed

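Per the submitters' processing notes and the file headers, the authors deposited kallisto 0.42.2 tables of estimated counts per transcript against mm9. The deposited TPM values, scaled for transcript length and library total, entered 1 alternative. For the transcript release and the strand setting: not given in the sources used here. Transcripts were tied to genes by identifier in GENCODE M21 (78002 of 88943, 87.7%; the rest held 6.59% to 6.78% of the counts of the 6 libraries), summed over 28537 genes and rounded.

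Genes were tested with edgeR 4.0.16 (R 4.3.3; TMM, filterByExpr, robust quasi-likelihood F test, prior count 0.125) in 1 fit of all 18 libraries with 6 group means, the double knockouts in their 2 library sets, and Benjamini-Hochberg adjustment at 0.05 over 16600 genes. SE is the absolute log2 fold change over the square root of F. CPM use TMM-adjusted library sizes. The script was tested on simulated data. No pair of libraries of the same group agreed within sampling noise, with the double knockouts split by library set. Other pairs were not compared.

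Named were Irx3 and Irx4; the 15 largest rises and 15 largest falls among called genes with at least 5 CPM and no overlap; up to 15 with the largest F called in each fit without 1 library; up to 15 called in both sets; and up to 4 per list. Y-linked genes and undescribed gene models were passed over, and genes outside this rule were added after their values were seen. The 43 lists hold 853 names, of which 3 did not match (Hmgcs1, Kcnj11 and Xist). Members and lists were chosen with earlier results of these data known. Coordinates are printed only for RefSeq promoters. Alternatives were DESeq2 1.42.0, limma-voom (limma 3.58.1), other scaling, filters, covariates and library choices.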

Additional observations from a re-analysis of the deposited data

How the results depend on the processing

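The number of calls in DKO against WT, 239 with 107 higher and 132 lower, ran from 177 to 272 with other size factors, no filter or a filter of 1 CPM in 3 libraries, a sex covariate, the length trend removed or counts rebuilt from TPM. It was 16 (6 higher, 10 lower) in the 6 libraries alone, 105 (61 and 44) with all 6 double knockouts pooled, 594 (323 and 271) with DESeq2 and 155 (103 and 52) with limma-voom. The split of calls thus moved from 44.8% higher to 66.5% with limma-voom. Of the 239 genes, 166 were also called with the sex covariate and 223 with the length trend removed. Leaving out 1 library gave 67 to 576 calls, 30 to 401 higher and 37 to 307 lower: the count was 67 when WT 1 was left out, 124 for WT 3, 546 for DKO 10 and 576 for DKO 5, with 0 sign changes among the 239. Of the 66 named called genes, 8 stayed past the threshold in the 6 libraries alone, 29 without WT 1 and all 66 with DESeq2. Mycn changed sign with all double knockouts pooled, to 0.67 (adjusted p = 0.702), and the cause was not tested. Its mean was 49.9 CPM in WT and 34.5 CPM in DKO 5, 7 and 10. Double knockouts 2, 3 and 4 averaged 124.2 CPM, and the other groups 133.8 to 158.6 CPM. Within the second set its log2 fold change was -0.33 (adjusted p = 0.269).

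The 15 calls of double knockouts 2, 3 and 4 against dHet became 4 to 17 without 1 library (4 without dHet 3, 5 without DKO 4, 6 without DKO 3) and 173 in the other 12 libraries alone, a fit added after the data were seen. With the replicate number as a block it gave 34 calls; libraries of the same number had correlations of 0.005, 0.02 and 0.041, so the numbers do not show a pairing. No paired analysis was possible because WT 1, 2 and 3 and DKO 5, 7 and 10 share no replicate number. Genes under about 1 CPM, such as Ctse in DKO, are limited by depth.

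The list medians moved by more than the spread between libraries in 7 of 43 lists without DKO 5, in 14 without WT 2 and in 15 with all double knockouts pooled, and the sign changed in 3, 5 and 9 of the 43. The atrial median of 0.36 became 0.43, 0.46 and 0.33 in that order, the atrioventricular canal median of 0.15 became 0.22, 0.08 and 0.22, and the macrophage median of -0.28 became -0.50, 0.04 and -0.47.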
